A study of Homo sapiens with 8 samples.

Results

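Promoter peaks were taken here as the ATAC-seq peaks that lay at most 1000 bp from the annotated start of their transcript. ATAC-seq maps open chromatin through a transposase that cuts accessible DNA. The distance was read from the deposited union table in GRCh38, as 0 for a peak that covered the start and otherwise as the gap between the start and the nearer peak edge. This gave 15930 of 62528 peaks (25.5%), assigned to 13709 gene entries of the authors' annotation. Of these peaks, 12204 (76.6%) covered the start and 3726 lay beside it. A total of 15906 passed a minimum mean of 2 CPM over the libraries (counts scaled to the library total) and 24 did not. JJN3 and KMS11, established human myeloma lines in RPMI medium with 5% serum, were each treated for 48 h with solvent (DMSO), with pomalidomide at 200 nM, with GNE-781 at 40 nM, or with pomalidomide at 200 nM plus GNE-781 at 40 nM, here called the combination. There was 1 library for each line and treatment, 8 in all. The design text asks how these compounds, alone and together, change accessibility, and the BATF and eGFP cells that it also names are not analysed here.

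Chromatin at a promoter is opened where transcription factors and the transcription machinery displace nucleosomes around the start of a gene. Promoters rich in CpG are often open in many cell types, whereas promoters poor in CpG and alternative starts inside genes are more often open in particular cell types. Pomalidomide binds cereblon, a substrate receptor of an E3 ubiquitin ligase, which leads to degradation of the transcription factors IKZF1 and IKZF3, and GNE-781 binds the bromodomains of the acetyltransferases CREBBP and EP300.

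The promoter sequences below are the 250 bases upstream of a RefSeq start (GRCh38.p14), read 5′ to 3′ on the strand of the gene, with capitals for matches to any of 14 short motifs searched on both strands. Matches may overlap each other. The motifs found in the printed stretches were the GC box GGGCGG, the CCAAT box GCCAAT, the ETS motif CCGGAAG, the E-box CACGTG and the interferon-response motif GAAANNGAA. They were present in 74.9%, 21.0%, 19.5%, 10.3% and 5.95% of the 9154 RefSeq windows of 300 bases that shared at least 150 bases with a promoter peak. Over all 35116 RefSeq windows the shares were 45.0%, 14.8%, 10.3%, 7.26% and 8.11%. A match describes letters only. ARID1A, CRY2 and E2F1 are shown first because their RefSeq starts lay in promoter peaks that were not called under the combination, while another promoter peak of the same gene was called. This reason was chosen after the values were seen. ARID1A is on chr1:26695765-26696014 (plus strand), CRY2 on chr11:45847225-45847474 (plus strand) and E2F1 on chr20:33686386-33686635 (minus strand).
ARID1A: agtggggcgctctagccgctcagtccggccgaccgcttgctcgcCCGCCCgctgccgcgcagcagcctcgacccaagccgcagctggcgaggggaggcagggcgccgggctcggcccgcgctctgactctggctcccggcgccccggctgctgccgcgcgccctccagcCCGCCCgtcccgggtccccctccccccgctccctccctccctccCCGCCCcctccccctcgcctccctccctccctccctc
CRY2: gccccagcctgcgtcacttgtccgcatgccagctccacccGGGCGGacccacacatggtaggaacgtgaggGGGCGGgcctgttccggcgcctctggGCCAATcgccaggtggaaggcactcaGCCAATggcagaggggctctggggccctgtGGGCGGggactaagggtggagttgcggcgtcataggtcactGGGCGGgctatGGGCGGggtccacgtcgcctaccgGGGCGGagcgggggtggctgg
E2F1: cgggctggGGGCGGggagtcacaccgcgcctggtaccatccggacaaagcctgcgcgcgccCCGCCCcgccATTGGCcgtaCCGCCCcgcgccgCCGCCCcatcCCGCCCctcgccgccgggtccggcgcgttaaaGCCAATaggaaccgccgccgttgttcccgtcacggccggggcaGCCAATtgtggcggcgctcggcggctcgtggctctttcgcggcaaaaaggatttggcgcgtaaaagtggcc

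The following sequences lay in the called peak itself. They belong to genes of prepared lists whose promoter peaks rose (DDX58, KAT5 and PARP9) or fell (IRF5 and SDC1) under the combination. Their positions are chr9:32526197-32526446 (DDX58, minus strand, RIGI in RefSeq), chr11:65712002-65712251 (KAT5, plus), chr3:122564301-122564550 (PARP9, minus), chr7:128941018-128941267 (IRF5, plus) and chr2:20225476-20225725 (SDC1, minus).
DDX58: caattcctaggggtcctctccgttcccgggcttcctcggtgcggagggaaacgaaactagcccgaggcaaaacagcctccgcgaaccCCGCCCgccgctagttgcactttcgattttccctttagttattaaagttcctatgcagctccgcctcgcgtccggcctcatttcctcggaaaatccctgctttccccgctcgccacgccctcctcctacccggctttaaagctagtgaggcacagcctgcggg
KAT5: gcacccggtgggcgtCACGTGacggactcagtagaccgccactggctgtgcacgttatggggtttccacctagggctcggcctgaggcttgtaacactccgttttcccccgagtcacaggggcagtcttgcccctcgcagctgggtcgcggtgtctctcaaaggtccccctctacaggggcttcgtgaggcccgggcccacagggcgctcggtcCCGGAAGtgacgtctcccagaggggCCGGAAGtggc
PARP9: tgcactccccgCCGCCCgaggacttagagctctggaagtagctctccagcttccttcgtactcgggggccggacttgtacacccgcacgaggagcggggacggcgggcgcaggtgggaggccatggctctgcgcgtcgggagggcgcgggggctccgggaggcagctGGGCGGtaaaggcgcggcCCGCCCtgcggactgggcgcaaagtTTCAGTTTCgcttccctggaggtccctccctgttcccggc
IRF5: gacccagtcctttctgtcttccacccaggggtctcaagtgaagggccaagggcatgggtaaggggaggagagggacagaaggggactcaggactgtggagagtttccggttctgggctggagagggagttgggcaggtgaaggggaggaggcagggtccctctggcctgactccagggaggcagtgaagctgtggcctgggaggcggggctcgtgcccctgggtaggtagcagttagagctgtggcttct
SDC1: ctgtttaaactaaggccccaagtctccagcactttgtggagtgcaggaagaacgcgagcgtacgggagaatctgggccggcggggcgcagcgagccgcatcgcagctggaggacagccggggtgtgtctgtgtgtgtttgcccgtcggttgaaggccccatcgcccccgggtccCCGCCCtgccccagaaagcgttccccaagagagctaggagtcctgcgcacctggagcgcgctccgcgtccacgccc

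PRDM9 (chr5:23507359-23507608, plus) and HOOK1 (chr1:59814699-59814948, plus) are shown as the promoters with a RefSeq window that ranked highest among the printable ones open mainly in JJN3 and mainly in KMS11.
PRDM9: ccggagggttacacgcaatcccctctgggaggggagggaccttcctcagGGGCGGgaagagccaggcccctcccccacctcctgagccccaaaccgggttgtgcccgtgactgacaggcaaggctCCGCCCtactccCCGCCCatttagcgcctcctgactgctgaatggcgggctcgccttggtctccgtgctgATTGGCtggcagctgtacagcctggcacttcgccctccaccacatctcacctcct
HOOK1: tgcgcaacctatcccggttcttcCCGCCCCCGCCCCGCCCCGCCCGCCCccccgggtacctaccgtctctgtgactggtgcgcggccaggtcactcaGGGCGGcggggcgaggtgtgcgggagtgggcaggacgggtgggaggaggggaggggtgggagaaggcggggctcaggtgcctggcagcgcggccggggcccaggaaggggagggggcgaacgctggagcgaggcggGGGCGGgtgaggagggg
Over the 300-base window, the CpG content relative to that expected from base composition was 1.14 for E2F1 and 1.02 for DDX58. It was 0.188 for IRF5, which held 5 CpG sites and no match to any of the motifs upstream of its start. The remaining printed promoters lay between 0.514 (PRDM9) and 0.888 (HOOK1).

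The libraries held 1366628 to 3218581 counts in JJN3 and 2981408 to 5435673 in KMS11, and the median promoter peak had from 30 counts (JJN3 DMSO) to 133 (KMS11 combination). Between 3 and 64 promoter peaks had 0 counts in a library. Promoter peaks took 47.5%, 50%, 48.8% and 47.8% of the counts in JJN3 under DMSO, pomalidomide, GNE-781 and the combination. They took 49.7%, 48.4%, 50.9% and 50.5% in KMS11. The 4 libraries of a line had different treatments, so the SD given next includes any effect of treatment. The test between the lines did not pair the libraries by treatment. The shares of the lines overlapped, at 48.5% ± 1.15 (SD, n = 4) in JJN3 and 49.9% ± 1.1 (SD, n = 4) in KMS11 (difference -1.33 points, two-sided exact permutation p = 0.143 and 0.429 after Benjamini-Hochberg adjustment over 3 tests, with a smallest possible p of 0.0286). Libraries with and without pomalidomide differed by -0.0326 points (exact permutation within lines, p = 0.944, adjusted 0.944) and those with and without GNE-781 by 0.604 points (p = 0.5 by the same exact test, adjusted 0.75). The smallest p these 2 tests allow is 0.0556, so neither could pass 0.05. With 1 library left out the GNE-781 difference ran from 0.136 points (without JJN3 DMSO) to 1.18 (without JJN3 combination). As a check of the cell type, 7 of 8 plasma cell identity genes had a promoter peak, with summed levels of 223 to 317 CPM per library, while TNFRSF17 had none. Promoter peaks were also present for 7 of 15 B cell, 5 of 19 T and NK cell, 3 of 14 myeloid, 3 of 12 erythroid and 6 of 15 stromal markers.

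Promoter peaks were wider and higher than other peaks. Their median width was 730 bp against 376 bp for peaks farther away, and their median mean level was 24.0 against 7.61 CPM, a ratio of 3.16. Per kilobase the medians were 32.8 and 21.0 CPM. Of the 1000 peaks with the highest mean level, 863 were promoter peaks. Peaks over the start had a median width of 809 bp and 29.5 CPM, and those beside it 414 bp and 9.93 CPM. A total of 1876 genes had more than 1 promoter peak, and SMARCA2, a chromatin remodelling ATPase, had the most with 6.

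Promoter peaks were called less often than other peaks in each comparison with more than a few calls. A call needed an adjusted p under 0.05 by edgeR's quasi-likelihood method, adjusted over all 62234 peaks after Benjamini and Hochberg in a fit blocked on the line. Under the combination, 128 promoter peaks rose and 141 fell, which is 1.69% of those tested. Over all peaks 4.79% were called, 2.11% higher and 2.67% lower, and over peaks farther than 1000 bp 5.85%. Under pomalidomide, 73 promoter peaks rose and 5 fell (0.49%), where 1.25% of all peaks were called, 1.03% higher and 0.228% lower. Under GNE-781, 0 promoter peaks rose and 1 fell, where 0.0209% of all peaks were called, 0% higher and 0.0209% lower. At an unadjusted p under 0.05 the GNE-781 test gave 668 promoter peaks in either direction, and DESeq2 called 0. Between the lines, with a change of at least 2-fold also required, 1770 promoter peaks were higher in JJN3 and 1688 in KMS11 (21.7%), where 31.9% of all peaks were called, 16.1% higher and 15.8% lower in JJN3. This order rested on the 2-fold limit. At an unadjusted p under 0.05 in the same test, with no limit on size, 62.3% of promoter peaks differed between the lines. Of peaks farther than 1000 bp 57.9% did. The median absolute log2 differences were 0.513 and 0.715. The treatment comparisons share the DMSO libraries. The shares of promoter and other peaks are a description with no test, since peaks are not replicates.

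The treatment counts rested on few libraries. With the KMS11 combination library left out 36 promoter peaks were called for the combination, with the KMS11 DMSO library left out 68, and with the JJN3 combination library left out 103. For pomalidomide the count was 7 when KMS11 DMSO was left out, 9 for KMS11 pomalidomide, 44 for JJN3 DMSO and 47 for JJN3 pomalidomide. The split moved with it, from 73 rises and 5 falls to 4 and 3 without KMS11 DMSO, 7 and 2 without KMS11 pomalidomide, and 34 and 10 without JJN3 DMSO. In each of these fits the share of other peaks called stayed above that of promoter peaks, by 2.1 to 4.32 times. The line count moved only between 3431 and 3528, but its split changed. From 1770 higher in JJN3 and 1688 in KMS11 it went to 1966 and 1562 without JJN3 DMSO. Without JJN3 pomalidomide it was 1645 and 1789.

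Without regard to level, peaks that covered the start had the lowest share of calls. Under the combination 1.14% of these were called, against 3.51% of promoter peaks beside the start. The plot of calls by distance shows a share of 2.84% to 4.03% in each bin beside the start up to 1000 bp and 4.07% in the next bin, up to 2000 bp. In the last 100 bp inside the limit 3.61% of 249 peaks were called, with a median level of 9.89 CPM, and in the first 100 bp outside it 2.83%. Between the lines, 19.4% of peaks over the start and 29.4% of those beside it were called.

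**Figure D1:**
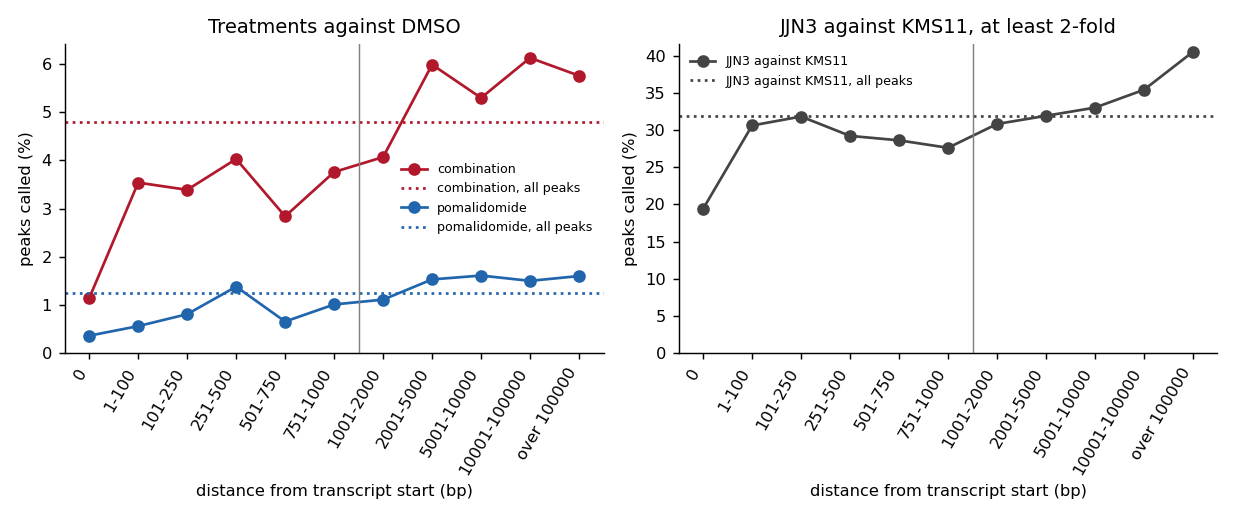
Share of peaks called (%, vertical axis) by distance from the transcript start in bp (horizontal axis), under the combination and pomalidomide against DMSO (left) and between the lines (right). Dotted lines give the share over all peaks, and the grey vertical line marks 1000 bp. Peaks over the start (distance 0) have the lowest share in each curve, 1.14% for the combination and 19.4% between the lines.

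Peaks were also compared at matched mean levels, because counts limit what a test can call. At 20 to 40 CPM, 1.11% of 4225 peaks over the start, 6.07% of 527 beside it and 11.8% of 4140 farther away were called under the combination. At 40 to 80 CPM the shares were 0.95%, 3.38% and 12.2%. At these levels peaks beside the start were thus also called less often than those farther away. Between the lines the order held at high levels, with 9.87%, 17.3% and 25.4% at 40 to 80 CPM. It turned at low levels: at 5 to 10 CPM 44.2% of peaks over the start differed between the lines, against 31.3% beside it and 34.7% farther away. At 2 to 5 CPM these shares were 47.1%, 38.8% and 38.9%.

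**Figure D2:**
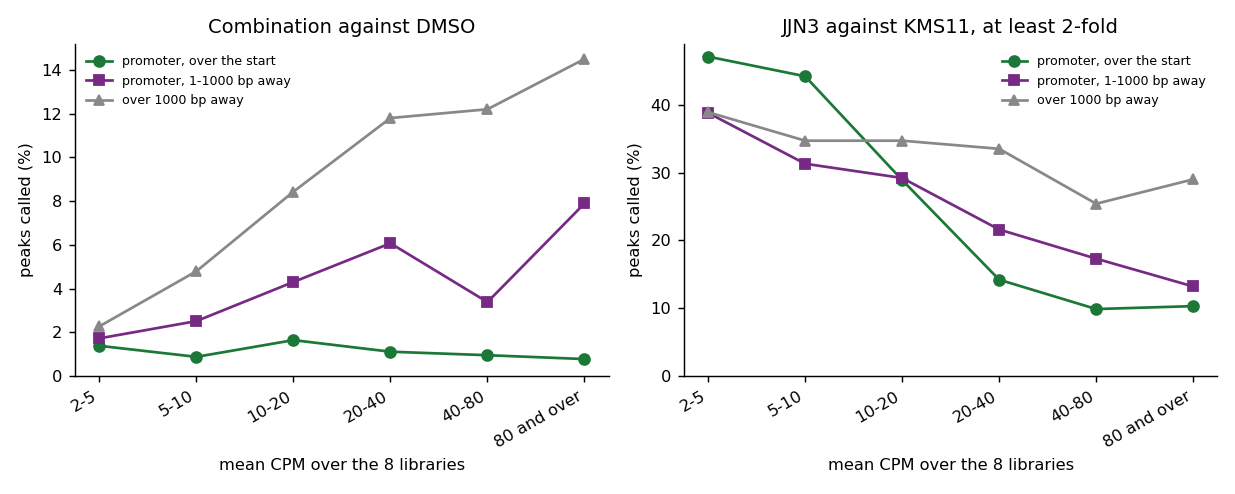
Share of peaks called (%, vertical axis) by mean level over the 8 libraries in CPM (horizontal axis), for peaks over the start, promoter peaks 1 to 1000 bp from it and peaks farther away, under the combination (left) and between the lines (right). Under the combination the curve for peaks over the start stays between 0.774% and 1.64%, while that of peaks farther away reaches 14.5%. Between the lines the peaks over the start have the highest share below 10 CPM and the lowest at 20 CPM and above.

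Called promoter peaks held a RefSeq start window less often than promoter peaks in general, and 200 of the 269 called under the combination were the highest promoter peak of their gene. A RefSeq window overlapped 57.6% of all promoter peaks tested, but 49 of 128 (38.3%) of those that rose under the combination and 25 of 141 (17.7%) of those that fell. Peaks with no window were called in 2.89% of cases, those with 1 window in 0.943%, and those with 2 or more in 0.547%. Their median levels were 13, 28.4 and 39.8 CPM, and the part of level in these shares was not tested. Where windows lay on both strands, as in bidirectional promoters, the share was 0.46%. The corresponding line shares were 28.8%, 18.6%, 12.5% and 11.7%. Among peaks that were not the highest promoter peak of their gene 3.13% were called under the combination, against 1.46% of the highest ones. Of the 36 lower-ranked peaks that rose (median log2 change 1.25), the highest promoter peak of the gene was called higher in 0 cases, with a median log2 change there of 0.05. Of the 33 that fell (median -1.18), it was called lower in 2, with a median of 0.0004.

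CpG content of the start window moved with these shares. The median ratio of observed to expected CpG was 0.855 in the 9154 windows in promoter peaks, 0.73 in those of peaks that rose under the combination and 0.701 in those of peaks that fell. A ratio under 0.4 was found in 5.71%, 26.5% and 24.0% of these windows. Of windows with a ratio under 0.2 the peak was called under the combination in 3.55%, and of those at 1 or above in 0.257%, and between the lines in 38.1% and 11.1%. Median levels rose over the same bins, from 11.2 to 35.3 CPM, and their part in the result was not tested. Of the 14 motifs searched, 5 are given for the combination and 1 between the lines, chosen after their values were seen. The RUNX motif TGTGGTT was present in 10.2% of windows of rising and 12% of falling peaks under the combination, against 2.79% of windows in promoter peaks and 4.27% of all RefSeq windows. The AP-1 motif TGANTCA was present in 10.2% and 16.0%, against 4.13% and 7.71%. For the TATA box TATAAA the shares were 8.16% and 12%, against 4.53% and 11.5%, and for the interferon-response motif 10.2% and 12%, against 5.95% and 8.11%. The Ikaros motif TGGGAA was present in 20.4% and 8.0%, against 21.1% and 24.0%. The shares of rising and falling peaks rest on 49 and 25 windows, which is 2 to 10 windows with a match for each of these motifs. The ETS motif was present in 20.6% of windows higher in JJN3, near the 19.5% of windows in promoter peaks. It was present in 7.84% of those higher in KMS11 and in 10.3% of all RefSeq windows.

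**Figure D3:**
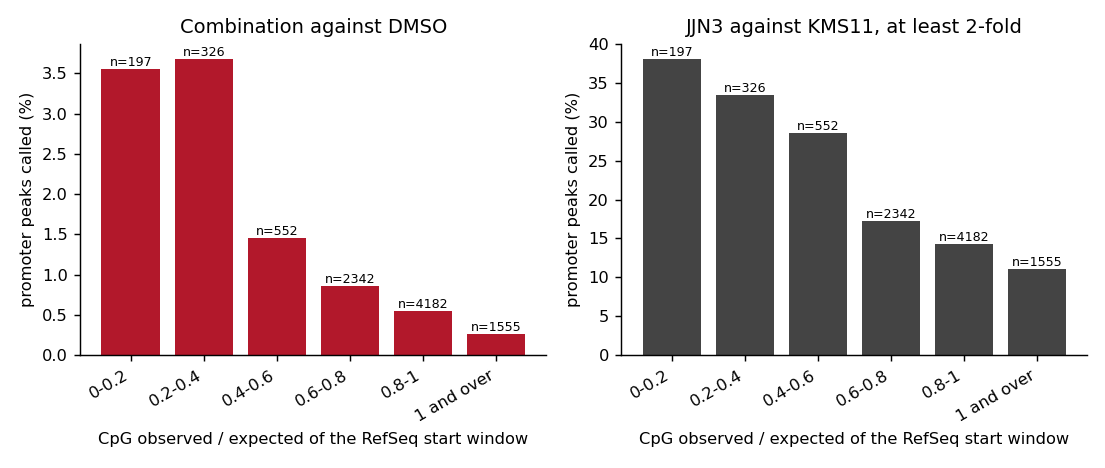
Share of promoter peaks called (%, vertical axis) by the observed to expected CpG ratio of the RefSeq start window in the peak (horizontal axis), under the combination (left) and between the lines (right), with the number of peaks above each bar. The bars fall from 3.55% and 3.68% in the lowest bins to 0.257% in the highest on the left, and from 38.1% to 11.1% on the right.

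Among promoter peaks that rose under the combination, those with the lowest adjusted p lay at uncharacterised transcripts and at starts inside longer genes. Values in this and the next paragraphs are CPM in the order DMSO, pomalidomide, GNE-781 and combination. The peak of the transcript RP6-91H8.3 (chr14:71142220-71142918) measured 5.26, 21.0, 14.1 and 25.7 in JJN3 and 7.25, 33.7, 7.11 and 29.2 in KMS11. It was high in every library with pomalidomide and lower in every library without it, and the groups did not overlap. The called peaks named here and below were chosen in the same libraries, so the order of libraries follows at least in part from that choice. Its log2 change under the combination was 2.08 ± 0.32 (SE, adjusted p = 2.33e-05).

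AC091199.1 (chr17:37802117-37802896) followed the same pattern, with 6.76, 22.3, 6.41 and 29.1 in JJN3 and 4.4, 16.1, 6.14 and 19.2 in KMS11 (2.12 ± 0.34, adjusted p = 3.05e-05). PPFIBP2 encodes a liprin scaffold protein, and a peak over one of its internal starts (chr11:7575845-7576608) measured 12.8, 36.3, 21.8 and 48.5 in JJN3 and 8.54, 20.8, 9.06 and 24.2 in KMS11 (1.67 ± 0.27, adjusted p = 4.15e-05). In both lines it was highest under the combination. RefSeq gives 5 start windows for PPFIBP2, and the nearest lay 182 bp from this peak. The peak that held another of them, chr11:7512629-7514384, had a log2 change of -0.2 (adjusted p = 0.659).

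ARID1A, a subunit of the SWI/SNF chromatin remodeller, showed a rise of 2.21 ± 0.36 (adjusted p = 4.35e-05) at a peak 361 bp from an internal start (chr1:26771590-26772049). That peak measured 6.76, 13, 8.98 and 22.3 in JJN3 and 3.62, 6.22, 4.53 and 21.4 in KMS11, highest under the combination in both lines. The peak with the RefSeq start printed above (chr1:26695461-26696234) had a log2 change of 0.03 (adjusted p = 0.964). CRY2, a repressor of the circadian clock, rose by 1.4 ± 0.25 (adjusted p = 0.000229) at a peak with a mean of 26.7 CPM (chr11:45858025-45858710). It measured 20.3, 50, 29.5 and 48.0 in JJN3 and 8.54, 22.9, 12 and 24.8 in KMS11, so that the combination was close to pomalidomide alone. The printed CRY2 start lay in a peak with a mean of 75.3 CPM and a log2 change of -0.11 (adjusted p = 0.827).

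BATF2, a basic leucine zipper factor of the AP-1 superfamily induced by interferon, measured 9.77, 15.0, 10.9 and 24.7 in JJN3 and 3.11, 8.15, 7.76 and 15.3 in KMS11 at chr11:64996771-64997232. In each line the combination was the highest value, and the rise was 1.84 ± 0.35 (adjusted p = 0.000571). The only RefSeq start window of BATF2 lay 6244 bp from this peak, and no promoter peak of the gene held it. WDFY3, a scaffold for selective autophagy, rose by 2.04 ± 0.36 (adjusted p = 0.000158) at chr4:84681871-84682376. The highest WDFY3 promoter peak, chr4:84965651-84967156, had a log2 change of 0.62 (adjusted p = 0.0569). The other named peaks that rose were those of RP11-290H9.5 (1.63), RP11-438D8.2 (1.67) and RP11-1L9.1 (2.34).

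The largest fall by adjusted p was at XRCC5, which encodes the Ku80 subunit of the DNA end-joining complex. The peak lay 472 bp from an annotated start inside the gene (chr2:216113564-216113946). It measured 34.6, 11.7, 11.5 and 3.88 in JJN3 and 19.9, 7.72, 5.82 and 3.21 in KMS11. DMSO was the highest and the combination the lowest in both lines, with the single agents between. The log2 change was -2.82 ± 0.35 under the combination (7.06-fold lower, adjusted p = 2.17e-07), -1.46 under pomalidomide (adjusted p = 0.00296) and -1.67 under GNE-781 (adjusted p = 0.0295). The peak over the upstream XRCC5 start, chr2:216109081-216109591, had a log2 change of 0.57 under the combination (adjusted p = 0.212). The GNE-781 call at XRCC5, the only promoter call for that compound, ended when any library under DMSO, GNE-781 or the combination was left out (adjusted p up to 0.753).

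GALNT5, an enzyme that starts mucin-type O-glycosylation, measured 18.8, 4.67, 6.41 and 3.88 in JJN3 and 14.8, 3.22, 4.2 and 1.78 in KMS11 (chr2:157256657-157257008). DMSO again stood above each treated library of its line, and the fall was -2.7 ± 0.42 (adjusted p = 2.33e-05). CNDP1, a carnosine dipeptidase, measured 54.9, 42.7, 52.6 and 22.3 in JJN3 and 27.4, 14.8, 10.3 and 7.3 in KMS11 (chr18:74535071-74535665; -1.63 ± 0.26, adjusted p = 2.54e-05). The lines differed in level there, and within each line the combination was lowest.

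LRRC4C, a netrin-G ligand, changed by -1.71 ± 0.29 (adjusted p = 7.08e-05), and ZHX2, a zinc finger and homeobox repressor, by -1.83 ± 0.32 (adjusted p = 0.000113). E2F1, a driver of S-phase entry, fell at a peak 305 bp from its annotated start (chr20:33685126-33686099), with 23.3, 20.3, 17.3 and 11.2 in JJN3 and 47.9, 28.1, 30.7 and 19.6 in KMS11 (-1.22 ± 0.24, adjusted p = 0.000844). The neighbouring peak over the printed E2F1 start (chr20:33686185-33686843) had a log2 change of 0.35 (adjusted p = 0.437). MIR5700 (-1.23), RP11-320N7.1 (-1.2) and SPIDR (-1.22), a scaffold in homologous recombination, were also named, as was RNA5S1, a 5S ribosomal RNA gene. The highest SPIDR promoter peak, chr8:47260587-47261256, had a log2 change of -0.39 (adjusted p = 0.327). That at chr8:47360436-47360830 had -1.04 (adjusted p = 0.0585). The other MIR5700 promoter peak, chr12:94560608-94561368, had 0.1 (adjusted p = 0.869). None of the 20 named peaks held a RefSeq window by the 150-base rule.

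**Figure D4:**
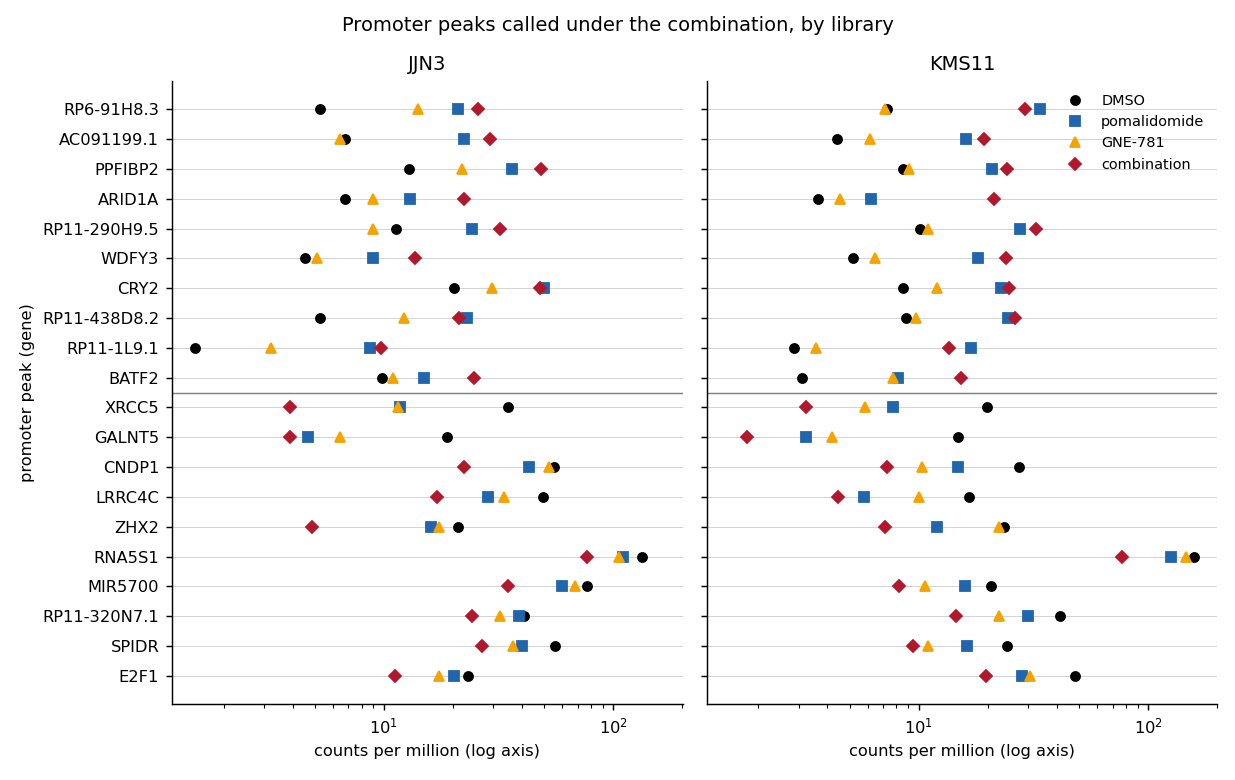
Level of the 20 promoter peaks named for the combination in each library (CPM, logarithmic horizontal axis), JJN3 left and KMS11 right, 1 row per peak with rises above the grey line and falls below it. Each point is 1 library. The combination lies above DMSO in all rows above the line and below it in all rows below the line, in both lines, for example 25.7 against 5.26 CPM in JJN3 for RP6-91H8.3. The peaks were chosen by this comparison in the same libraries, so this order follows largely from the choice.

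Each of the 20 named calls was tried with every library left out in turn. PPFIBP2 (highest adjusted p 0.00976), RP6-91H8.3 (0.0179), AC091199.1 (0.0241), CRY2 (0.0478), XRCC5 (0.0021), LRRC4C (0.0179), MIR5700 (0.0323), ZHX2 (0.0352), CNDP1 (0.0378) and GALNT5 (0.0443) stayed under 0.05 each time. The highest values of the others included 0.0911 for ARID1A, 0.166 for BATF2, 0.224 for WDFY3 and 0.271 for E2F1. With the 10 further list genes below, 30 peaks were tried. The KMS11 combination library ended 18 of these calls when left out, KMS11 DMSO 14, JJN3 combination 10, JJN3 DMSO 9, and JJN3 and KMS11 pomalidomide 1 each.

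The 19 prepared gene lists held 461 tested promoter peaks, of which 6 rose and 7 fell under the combination (2.82%, beside 1.69% of all promoter peaks and 4.79% of all peaks), with a median log2 change of 0.04. Of 44 promoter peaks of plasma cell and myeloma transcription factors 0 were called for any treatment in edgeR's test (3 at an unadjusted p under 0.05 for each). Examples under the combination are IRF4, a survival factor of myeloma cells (0.37, adjusted p = 0.385), PRDM1, a regulator of plasma cell differentiation (-0.0005 at its higher peak, adjusted p = 0.999), XBP1, which drives the secretory programme (0.19, adjusted p = 0.771), and MYC (-0.13, adjusted p = 0.791). The promoter of IKZF3, a pomalidomide target, had a log2 change of 0.7 (adjusted p = 0.278), and that of CRBN, which encodes cereblon, -0.17 (adjusted p = 0.773). For the combination, 0 of 58 promoter peaks of ribosomal protein genes, 0 of 25 of proteasome genes and 0 of 23 of NF-kB response genes were called, with 7, 1 and 2 at an unadjusted p under 0.05 in the same test.

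Of the surface and secretory genes, 1 of 24 promoter peaks was called (4.17%, beside 1.69% of all promoter peaks and 4.79% of all peaks). That call was a fall at SDC1, which encodes the plasma cell surface proteoglycan CD138. It measured 58.6, 48.7, 46.2 and 37.8 in JJN3 and 55.4, 49.3, 43.7 and 33.5 in KMS11. Both lines gave the highest value under DMSO and the lowest under the combination, and the combination libraries lay below the others (-0.69 ± 0.2, adjusted p = 0.0253). Its sequence above came from the called peak. For protein folding and endoplasmic reticulum stress, 1 of 26 promoter peaks was called (3.85%, beside the same shares). TRIB3, a pseudokinase of the stress response, rose there (1.3 ± 0.29, adjusted p = 0.00367, chr20:362357-362931). Its remaining promoter peaks had log2 changes of -0.35 and 0.05 and were not called.

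Of 32 interferon-response promoter peaks 3 rose and 1 fell (12.5%, beside 1.69% of all promoter peaks and 4.79% of all peaks). DDX58, the RNA sensor RIG-I, measured 15.0, 25.3, 14.7 and 28.1 in JJN3 and 18.9, 33.2, 14.9 and 36.3 in KMS11. Libraries with pomalidomide were higher than those without, with no overlap, and the combination effect was 0.93 ± 0.25 (adjusted p = 0.0153). PARP9, which acts with DTX3L in interferon signalling, gave 0.69 ± 0.22 (adjusted p = 0.0468) and BATF2 is described above. ISG20, an interferon-induced exonuclease, fell at a peak 992 bp from its start with a mean of 21.1 CPM (-0.84 ± 0.26, adjusted p = 0.0415). The higher peak over the ISG20 start (chr15:88638457-88639377, 58.5 CPM) had a log2 change of -0.16 (adjusted p = 0.728). At IRF5, an interferon regulatory factor, the peak with the printed CpG-poor start changed by -0.87 ± 0.23 (adjusted p = 0.0174). The peak over its other start (chr7:128937755-128938393) had a log2 change of -0.04 (adjusted p = 0.955).

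KAT5, the acetyltransferase TIP60, measured 50.4, 70.3, 57.7 and 85.3 in JJN3 and 30.5, 47.8, 39.8 and 53.2 in KMS11. Every treated library stood above the DMSO library of its line (0.79 ± 0.19, adjusted p = 0.00767). Among marker genes of other cell types, GNLY (-1.18, adjusted p = 0.0163) was the 1 called of 6 T and NK cell peaks. HBB (-2.32, adjusted p = 0.00515) was the 1 called of 3 erythroid peaks, and FN1 (1.8, adjusted p = 0.0433, at a secondary start) of 7 stromal peaks. B cell and myeloid markers had 0 of 9 and 0 of 3 called, beside 1.69% of all promoter peaks and 4.79% of all peaks. HBB had 3 and 9 counts under the combination in JJN3 and KMS11, and FN1 2 and 8 under DMSO. The higher FN1 peak, chr2:215435716-215436805, had a log2 change of -0.2 (adjusted p = 0.73). With 1 library left out, the highest adjusted p of the called list genes lay between 0.0936 (TRIB3) and 0.592 (PARP9), apart from XRCC5.

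A few promoter peaks of immune and signalling genes were singled out after their values were seen. Only rises are given here, without a share called among such genes. These calls were not tried with each library left out. CD274, which encodes the checkpoint ligand PD-L1, measured 8.27, 29.0, 18.0 and 22.8 in JJN3 and 13.2, 26.2, 15.2 and 29.0 in KMS11. Libraries with pomalidomide were above those without, with no overlap. The log2 change was 1.26 under pomalidomide (adjusted p = 0.00668) and 1.2 under the combination (adjusted p = 0.00474). The receptor genes IL6R (1.61, adjusted p = 0.00196) and IL6ST (0.7, adjusted p = 0.0107), which together form the IL-6 receptor, both rose under the combination. TMEM173, which encodes STING, rose by 0.81 (adjusted p = 0.0201), PTPN2, a phosphatase acting on JAK and STAT proteins, by 1.05 (adjusted p = 0.0254) and the complement gene CFB by 1.19 (adjusted p = 0.0174).

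A block of 12 falls came from one tandem array, the 5S ribosomal RNA genes on chromosome 1 (chr1:228608499-228646655), which RNA polymerase III transcribes. It held 14 promoter peaks of 13 gene entries, of which 12 were called lower under the combination and 0 under pomalidomide or GNE-781. All 14 log2 changes were negative under each single agent too. They ran from -0.53 to -0.12 (median -0.39) under pomalidomide and from -0.47 to -0.14 (median -0.29) under GNE-781. The log2 changes under the combination ran from -0.95 to -0.52, with a median of -0.81. The peak over RNA5S1 (chr1:228610154-228611166) measured 133.0, 110.0, 106.0 and 77.1 in JJN3 and 159.0, 126.0, 146.0 and 76.9 in KMS11, lowest under the combination in both lines (-0.93 ± 0.17, adjusted p = 0.000282, up to 0.11 with 1 library left out). The summed level was 1420, 1010, 1010 and 918 CPM in JJN3 and 1540, 1270, 1420 and 801 in KMS11. It was highest under DMSO and lowest under the combination in both lines. The copies are nearly identical, so reads cannot be placed with certainty among them, and without the array 129 promoter peaks fell.

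Under pomalidomide alone, in a comparison that shares the DMSO libraries with the combination, 5 of the 10 named rises were peaks already named above: RP6-91H8.3 (2.08), AC091199.1 (1.81), CRY2 (1.37), RP11-438D8.2 (1.65) and RP11-1L9.1 (2.49). CTDSP2, a phosphatase of the RNA polymerase II tail, rose at a secondary start (chr12:57828927-57829365), with 1.5, 12.3, 1.28 and 6.3 in JJN3 and 2.59, 14.6, 2.26 and 12.1 in KMS11. Libraries with pomalidomide were above those without, with no overlap (2.66 ± 0.45, adjusted p = 0.000221). The rises named here were chosen by this comparison in the same libraries, so such separation follows largely from the choice. The highest CTDSP2 promoter peak (chr12:57845547-57847292) had a log2 change of -0.03 (adjusted p = 0.984). HYAL4, a member of the hyaluronidase family, measured 13.5, 48.0, 7.69 and 35.9 in JJN3 and 17.6, 40.3, 16.5 and 36 in KMS11 (1.45 ± 0.25, adjusted p = 0.000229), again without overlap. The other named rises were PIPOX, a peroxisomal oxidase (1.25), GS1-115G20.2 (1.17) and CHD9, a chromatin remodeller (1.01). CHD9 was called at a lower-ranked peak. Its highest promoter peak (chr16:53130229-53131101) had a log2 change of 0.22 (adjusted p = 0.756), and that at chr16:53054492-53055484 one of 0.3 (adjusted p = 0.712).

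The 5 falls under pomalidomide were NLGN1-AS1, GALNT5, XRCC5, RP11-861L17.2 and LRRC4C. NLGN1-AS1 (chr3:173920225-173920880) measured 23.3, 3.67, 15.4 and 6.79 in JJN3 and 29.0, 11.4, 25.2 and 12.6 in KMS11. All libraries with pomalidomide were lower than all without it (-1.75 ± 0.3, adjusted p = 0.000338), at a peak also chosen by this comparison. GALNT5 changed by -2.11, LRRC4C by -1.1 and RP11-861L17.2 by -0.79. Of the 15 named calls, HYAL4 (highest adjusted p 0.0431) and NLGN1-AS1 (0.0216) stayed under 0.05 with each library left out. Leaving out KMS11 DMSO ended 11 of the 15 calls, leaving out KMS11 pomalidomide 10, JJN3 pomalidomide 3 and JJN3 DMSO 1. Interferon-stimulated PLSCR1 (0.83, adjusted p = 0.012) and APOBEC3G (0.89, adjusted p = 0.0221), chosen after their values were seen, rose under pomalidomide and had combination values of 0.6 (adjusted p = 0.0544) and 0.39 (adjusted p = 0.403). Another APOBEC3G promoter peak (chr22:39076828-39077506) had 0.51 under pomalidomide (adjusted p = 0.486). Of the 32 peaks of the interferon-response list, 0 were called under pomalidomide, with 4 at an unadjusted p under 0.05 and a median log2 change of 0.13.

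More promoter peaks were called between the lines than for any treatment. The promoter of PRDM9, a histone methyltransferase that places meiotic recombination sites, measured 89.4, 104.0, 92.3 and 85.3 in JJN3 and 6.99, 3.64, 5.82 and 3.92 in KMS11 (log2 JJN3 over KMS11 4.23 ± 0.18, adjusted p = 7.51e-30). OOEP, an oocyte factor, measured 51.1, 63.3, 51.3 and 45.6 against 3.88, 2.14, 4.2 and 2.49 (4.09 ± 0.21, adjusted p = 1.21e-25). The lines did not overlap at either peak, whatever the treatment, and both peaks were chosen by this comparison. GSDMD, the pore-forming effector of pyroptosis, had 44.2 to 73.3 CPM in JJN3 and 0 to 2.07 in KMS11 at chr8:143553093-143553911. This was not the highest promoter peak of GSDMD, and the values of the higher one are not given here. The other named peaks higher in JJN3 were those of FAM86B3P, JRK, COLCA1, ZNF736, HCG4B, RP11-10J21.6 and TRGV9. FAM86B3P, HCG4B and TRGV9 belong to families of similar copies, where the placement of reads is uncertain.

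Higher in KMS11 was HOOK1, a linker of cargo to microtubules, with 11.3, 8.0, 5.77 and 7.76 in JJN3 and 115.0, 113.0, 119.0 and 99.9 in KMS11 (-3.78 ± 0.18, adjusted p = 6.91e-28). PEG3, an imprinted zinc finger gene, measured 8.27, 4.0, 5.77 and 6.3 against 115.0, 114.0, 131.0 and 102.0 (-4.3 ± 0.19, adjusted p = 3.1e-29). TIAM1, an activator of the GTPase Rac, gave -3.74, CBLN1, a synaptic organiser, -4.12, DYRK1B, a kinase, -3.53, and TRIM58, a ubiquitin ligase, -4.3. RP13-539J13.1, ANKRD18A, UCHL1-AS1 and AC004062.2 completed the named peaks. All 20 named line calls stayed called with each library left out.

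Of the 461 promoter peaks of list genes, 36 were higher in JJN3 and 31 in KMS11 (14.5%, beside 21.7% of all promoter peaks and 31.9% of all peaks). Higher in JJN3 were all 3 called peaks of the anti-apoptotic gene BCL2 (1.9 ± 0.13 at the highest, adjusted p = 1.5e-20), the B cell coactivator POU2AF1 (2.09 ± 0.14, adjusted p = 3.55e-20) and the CDK4/6 inhibitor gene CDKN2C (1.8 ± 0.15, adjusted p = 5.89e-16). Higher in KMS11 were, among others, CMPK2, an interferon-induced nucleotide kinase (-2.7 ± 0.25, adjusted p = 2.07e-14), and TNFRSF13B, which encodes the receptor TACI (-1.92 ± 0.28, adjusted p = 3.11e-08). The highest POU2AF1 peak measured 96.2, 99.6, 68.6 and 71.8 in JJN3 and 22.3, 21.4, 17.5 and 17.8 in KMS11, with no overlap between the lines.

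Line differences varied by chromosome. The median log2 difference of promoter peaks was 0.55 on chromosome 11 and 0.51 on chromosome 8, and -0.84 on X and -0.64 on chromosome 4. On chromosome X 33.8% of promoter peaks were called higher in KMS11, and on chromosome 8 27.4% were called higher in JJN3. The medians of peaks farther than 1000 bp were 0.45, 0.64, -1.09 and -0.73 on chromosomes 11, 8, X and 4. DNA copies per cell were not measured, so a difference in copy number and one in accessibility per copy cannot be told apart. Near-absence in one line was rare. Only 3 promoter peaks had at least 10 CPM in all JJN3 libraries and under 1 CPM in all KMS11 libraries (HCG4B, CTD-2194L12.2 and RP11-483I13.2), and 6 the reverse, all entries of immunoglobulin heavy chain variable segments, which are named after their values were seen and also resemble each other in sequence.

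**Figure D5:**
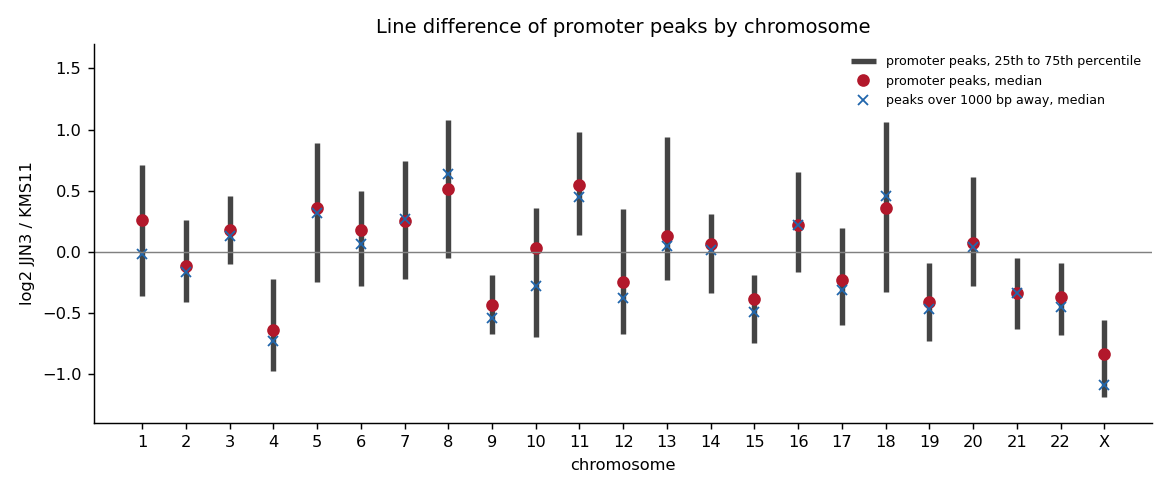
Log2 ratio of JJN3 over KMS11 (vertical axis) by chromosome (horizontal axis). Red points are medians over promoter peaks, grey bars run from the 25th to the 75th percentile and blue crosses are medians over peaks farther than 1000 bp from a start. Chromosome X has the lowest promoter median, -0.84, and chromosome 11 the highest, 0.55.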

How the data were processed

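The authors deposited 1 table of raw counts, unnormalized and whole, for 8 libraries over a union of MACS2 peaks, with a transcript assigned to each. Per the submitters' processing notes, the upstream work used the build GRCh38, R 4.1.2, MACS2 2.1.1.20160309, Bowtie2 2.3.5.1, SAMtools 1.10, and, named beside these, cutadapt 2.5 and Trim Galore 0.6.4. The handling of duplicates, of mitochondrial reads and of the transposase offset is not given in the sources used here. PCR copies are not independent molecules, and a union of peaks favours deeper libraries.

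Libraries were grouped by the labels of line and treatment. Peaks with a mean of at least 2 CPM were fitted in edgeR 4.0.16 (R 4.3.3) by the quasi-likelihood test, with TMM scaling, a block for the line and an effect for each treatment (3 residual degrees of freedom). Adjusted p is Benjamini-Hochberg over 62234 peaks, called under 0.05, and line calls also needed a 2-fold change. The lines pair the libraries by design. The labels do not say that libraries came from separate cultures, so p-values measure only how these samples spread, possibly for technical reasons. Changes within 1 line use a prior count of 2 and have no replicate check.

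Promoter shares were compared by exact permutation. Sequences are RefSeq windows of GRCh38.p14, 250 bases before to 50 after a start. Of 543 genes in 19 lists, 377 had a promoter peak, 6 of them by an older symbol. The peaks named are the 10 called with the lowest adjusted p in each direction, 1 per gene, and called list genes. The members and lists were chosen with earlier results of these data known. Alternatives were DESeq2 1.42.0, other scalings, no filter, thinning, other distances and each library left out.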

Additional observations from a re-analysis of the deposited data

Results flagged for a closer look

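The promoter share of counts moved in opposite directions in the lines under pomalidomide. Relative to DMSO it was 2.54 points higher in JJN3 and changed by -1.24 points in KMS11. The difference between the lines was not tested, with 1 library each.

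Of 78 promoter peaks called under pomalidomide, 76 had the same sign in both lines. The others were SEMA4B (-0.09 in JJN3 and 2.27 in KMS11 as log2 ratios) and RP13-539J13.1 (-0.01 and 0.99). Of 269 called under the combination, 264 had the same sign. The others were UFSP2 (0.15 in JJN3 and -1.83 in KMS11), INHBE (0.16 and -1.77), ATP6V1B1 (-0.16 and 1.93), a clone-named transcript at chr2:216210855-216211647 (-0.04 and 1.89) and PLEKHG6 (-0.31 and 1.41). In these peaks KMS11 carried the change, and the difference between the lines was not tested. They were chosen after their values were seen. The calls came from a fit with the lines as replicates, which favours the same sign in both.

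Among the 20 peaks named between the lines and the promoter shares, 42 groups of 4 libraries were searched for a library far from the other 3, and 6 had one, where chance flags about 1 in 20. ZNF736 (13.6 CPM) and TRGV9 (8.73 CPM) were highest in the KMS11 GNE-781 library, and GSDMD (2.07 CPM) and HCG4B (0.259 CPM) in KMS11 DMSO. TRIM58 was highest in JJN3 DMSO (10.5 CPM) and CBLN1 lowest in the JJN3 combination library (1.94 CPM). The 4 libraries of a group had different treatments.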

How the results depend on the processing

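The count of promoter peaks that differed between the lines, 3458, stayed within 3352 (DESeq2) and 4123 (limit of 2000 bp), apart from 2368 over the start alone. The treatment counts moved more, from 78 for pomalidomide, 1 for GNE-781 and 269 for the combination. Without the line as replicate block all 3 were 0, with 76, 22 and 154 promoter peaks at an unadjusted p under 0.05. Thinning every library to the depth of the shallowest gave 17, 0 and 107, DESeq2 gave 7, 0 and 38, and peaks over the start alone gave 44, 0 and 139. Scaling by promoter peaks gave 59, 0 and 247, and fitting only the compared libraries 104, 2 and 259. With 1 library left out the counts ran from 7 to 102 for pomalidomide, 0 to 1 for GNE-781, 36 to 299 for the combination and 3431 to 3528 between the lines. DESeq2 left the adjusted p undefined for 10 and 37 of the pomalidomide and combination calls. The rises among the pomalidomide calls were 93.6%, and 57.1%, 77.3% or 77.8% without KMS11 DMSO, JJN3 DMSO or KMS11 pomalidomide. The rises among the combination calls were 47.6%, with DESeq2 39.5%, without the JJN3 DMSO library 29.7%, and with thinning or over the start alone 56.1%. The pomalidomide difference in promoter share, -0.0326 points, ran from -0.607 to 0.528 with 1 library left out and was positive without the JJN3 combination (0.435), KMS11 DMSO (0.112), KMS11 pomalidomide (0.224) or KMS11 GNE-781 (0.528) library. The cause of these shifts was not tested, except that thinning and leaving out a library use fewer counts or samples.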
